A study of Mus musculus with 7 samples.

Results

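Cadherins and protocadherins are transmembrane receptors with repeated extracellular domains that bind calcium, and most of them hold cells together by pairing with the same molecule on a neighboring cell. Members were selected by a rule on gene symbols, and no measured value decided which gene entered. The family was chosen with earlier results of these data known. They comprised every gene named Cdh or Pcdh with a number, every isoform gene of the Pcdha, Pcdhb and Pcdhg clusters, the cadherin-related Cdhr genes and Fat1 to Fat4. The rule found 105 of the 56941 genes in the count matrices. These were 23 cadherins, 12 nonclustered protocadherins, 14 Pcdha, 22 Pcdhb and 22 Pcdhg isoform genes, 8 Cdhr genes and 4 Fat genes. The symbol Cdhr17 stood for 2 different Ensembl identifiers, which were counted as separate genes.

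The data are single-nucleus RNA sequencing profiles of endpoint lung tumors with small cell lung cancer from 4 male mice. RP1 and RP2 were RP mice (Rb1 fl/fl, Trp53 fl/fl). RPC1 and RPC2 were RPC mice, which carried the same 2 conditional genes and in addition lost Casp8, written as Casp8-/- in the labels and as a conditional deletion in the text of the study. In both genotypes, young adult mice inhaled an adenovirus that drives Cre recombinase from the CMV promoter, which is not specific for a cell type. Each animal gave 1 count matrix, and the animal was the replicate. The comparison of RPC with RP asked which genes differ when Casp8 is deleted along with Rb1 and Trp53.

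Classical cadherins such as E-cadherin (Cdh1) and N-cadherin (Cdh2) connect through catenins to the actin cytoskeleton and form adherens junctions, and VE-cadherin (Cdh5) does so between endothelial cells. Protocadherins are most diverse in the nervous system, where each neuron expresses a small set of clustered isoforms that gives its surface an identity. Small cell lung cancer is a neuroendocrine tumor whose cells use many neuronal genes.

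The 4 matrices held 38353 nuclei, of which 38254 passed the filters. Between 8363 and 10853 nuclei per animal were kept, with a median of 2223 to 3392 transcripts per nucleus and 32256394 to 70517884 transcripts per animal. No barcode occurred in more than 1 animal. Nuclei were clustered without the members and the clusters were named by marker genes, so the class names are reconstructions. Tumor-like nuclei numbered 7097 and 7237 in RP1 and RP2, and 9163 and 8681 in RPC1 and RPC2. All 14 neuroendocrine markers were detected in them, at a summed level of 7491 to 12140 CPM (transcripts scaled to a total of 1000000 per animal). The level of Casp8 in tumor-like nuclei was 58.8 and 61.1 CPM in RP and 89.0 and 66.2 CPM in RPC, but counts per gene do not separate deleted from remaining exons, so Casp8 did not check the labels.

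In tumor-like nuclei, 3 members gave most of the member transcripts. Levels in these nuclei are given as CPM of the transcripts summed per animal and scaled by the trimmed mean of M values (TMM), in the order RP1, RP2, RPC1 and RPC2. All members together made up 6591, 6904, 7682 and 8380 CPM. T-cadherin (Cdh13), which is anchored to the membrane by a lipid and lacks the cytoplasmic part of other cadherins, was at 2004, 2733, 3387 and 3125 CPM and was the 11th most abundant of all genes by mean level. Pcdh9, a delta-1 protocadherin, followed at 1029, 1218, 1107 and 1902 CPM, and the type II cadherin Cdh20 at 927, 770, 915 and 1125 CPM. These 3 genes gave 60.1%, 68.4%, 70.4% and 73.4% of the member transcripts in the respective animals. At the other end, 42 members had a mean under 1 CPM, and Pcdh20 and 1 of the Cdhr17 genes had no count.

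Nuclear RNA holds introns, so long genes collect more counts. Per kilobase of gene span the order of the members differed. Cdh1 came first with a mean of 5.21 CPM per kilobase over a span of 66.9 kb, followed by Cdh20 with 4.12, Cdh22 with 2.75 and Cdh13 with 2.70 CPM per kilobase, the latter over 1041 kb. Cdh24, Pcdhb17, Fat1, Pcdhgc4 and Cdh2 followed with 2.62, 2.19, 1.89, 1.79 and 1.68 CPM per kilobase, and Pcdh9 came after them. Thus E-cadherin stood above N-cadherin on the scale per kilobase.

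The 250 bases before the annotated start are printed for 4 members whose level in tumor-like nuclei set single animals apart or made up a large part of the total (Cdh20, Cdh8, Cdh18 and Pcdh7) and for the 2 members that marked ciliated-like nuclei (Cdhr3 and Cdhr4). The sequences are those of RefSeq on GRCm38.p6, written 5′ to 3′ on the strand of the gene, and their positions do not apply to GRCm39, the build of the counts. Capitals mark the reverse complements of 2 of the searched motifs, which are the E box CAGGTG bound by repressors such as Zeb1 and GTTGCC, the core of the box bound by the ciliary factors of the Rfx family. Cdh20 (chr1:104768270-104768519, plus strand), Cdh8 (chr8:99416472-99416721, minus strand), Cdh18 (chr15:23036213-23036462, plus strand), Pcdh7 (chr5:57717831-57718080, plus strand), Cdhr3 (chr12:33092876-33093125, minus strand) and Cdhr4 (chr9:107992207-107992456, plus strand) read as follows.
Cdh20: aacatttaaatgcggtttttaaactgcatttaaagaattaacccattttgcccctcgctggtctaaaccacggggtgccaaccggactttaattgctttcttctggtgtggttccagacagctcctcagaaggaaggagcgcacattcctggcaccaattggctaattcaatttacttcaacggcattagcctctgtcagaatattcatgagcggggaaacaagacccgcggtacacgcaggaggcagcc
Cdh8: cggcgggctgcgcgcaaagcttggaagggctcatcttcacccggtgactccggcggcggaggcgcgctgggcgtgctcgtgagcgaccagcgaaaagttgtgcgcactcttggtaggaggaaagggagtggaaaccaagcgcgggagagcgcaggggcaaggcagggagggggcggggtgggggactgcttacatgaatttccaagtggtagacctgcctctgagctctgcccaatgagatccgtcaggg
Cdh18: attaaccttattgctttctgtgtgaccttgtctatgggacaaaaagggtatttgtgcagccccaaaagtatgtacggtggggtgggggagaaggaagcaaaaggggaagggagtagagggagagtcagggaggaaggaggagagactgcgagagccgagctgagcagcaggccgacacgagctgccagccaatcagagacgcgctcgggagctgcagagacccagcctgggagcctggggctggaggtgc
Pcdh7: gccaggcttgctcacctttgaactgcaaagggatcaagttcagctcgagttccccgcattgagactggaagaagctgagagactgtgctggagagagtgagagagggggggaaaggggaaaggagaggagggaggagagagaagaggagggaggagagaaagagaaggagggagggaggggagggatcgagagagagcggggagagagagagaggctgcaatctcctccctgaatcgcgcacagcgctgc
Cdhr3: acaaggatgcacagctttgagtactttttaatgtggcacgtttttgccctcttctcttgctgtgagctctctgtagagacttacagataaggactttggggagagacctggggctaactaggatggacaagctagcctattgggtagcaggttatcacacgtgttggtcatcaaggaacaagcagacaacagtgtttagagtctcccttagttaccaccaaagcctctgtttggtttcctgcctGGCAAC
Cdhr4: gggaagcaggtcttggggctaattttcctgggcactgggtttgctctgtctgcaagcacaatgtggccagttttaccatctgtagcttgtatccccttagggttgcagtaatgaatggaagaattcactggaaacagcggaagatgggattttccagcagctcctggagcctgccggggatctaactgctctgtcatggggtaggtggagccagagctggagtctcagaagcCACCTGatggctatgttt
Both strands were searched. GTTGCC was found in the 250 bases of 10.5% of the 27025 genes in the promoter table and of 1 of the 31 members it held, Cdhr3. CAGGTG was found in 17.1% of all genes and in 5 of these 31 members, among them Cdhr4. CAGCTG, another E box that was searched, was found in 12.8% of all genes and in 2 of these 31 members, Cdh9 and Cdh12. The matches describe these windows and no more. The GC content of the printed windows ran from 47.2% in Cdhr3 to 64.4% in Cdh8, beside a median of 52% over all genes.

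No member passed the test between RPC and RP tumor-like nuclei. Of the 105 members, 90 had enough counts to be tested, and by edgeR's quasi-likelihood test with Benjamini-Hochberg adjustment 0 of them had an adjusted p under 0.05, nor had any of the 20066 genes tested (0%). The smallest adjusted p of a member was 0.270. At an unadjusted p under 0.05, 17 members were higher and 4 lower in RPC, beside 7.49% and 7.72% of all genes tested. DESeq2 gave an adjusted p under 0.05 for 7 members, beside 3.73% of all genes tested by it. Higher in RPC were Pcdhb17, Pcdhb19, Pcdhb21, Pcdhb22 and Pcdhga9 (1.99% of all genes), and lower were Cdh7 and Cdh23 (1.74% of all genes). The median log2 fold change (RPC over RP) over the tested members was 0.18, beside -0.01 over all genes. The values of both RPC animals lay above those of both RP animals for 27 members (24.8% of all genes) and below them for 20 members (25.5% of all genes), and the genotypes overlapped for the other 43.

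**Figure D1:**
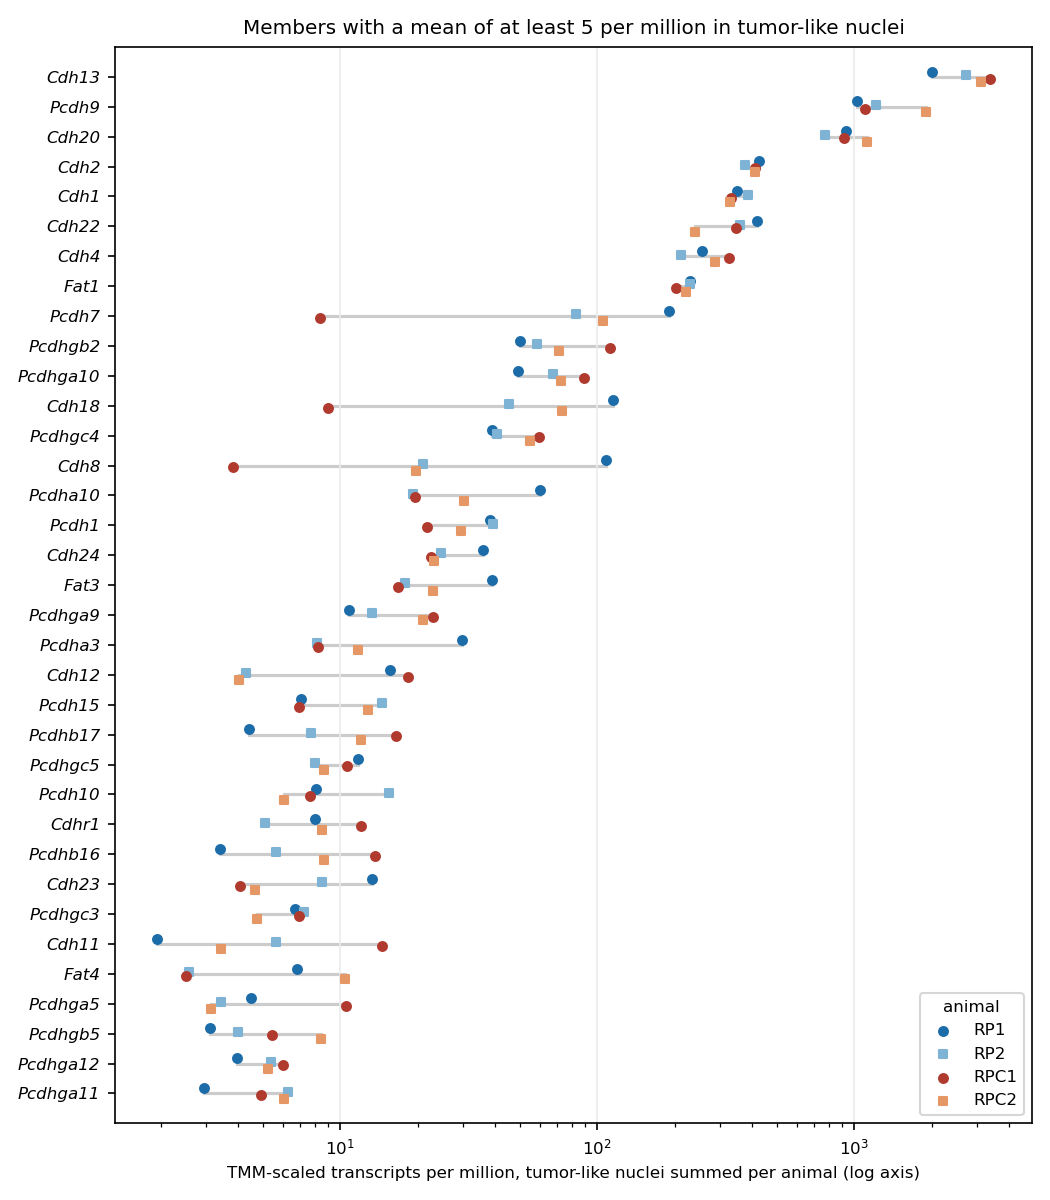
Level of the members with a mean of at least 5 CPM in tumor-like nuclei (horizontal log axis, TMM-scaled CPM), 1 point per animal, the RP animals in blue and the RPC animals in red and orange. The points of Cdh2, Cdh1 and Fat1 lie close together, while those of Pcdh7, Cdh18 and Cdh8 spread over more than a factor of 10.

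Among the classical type I cadherins, Cdh1 and Cdh2 were present together in all 4 animals. Cdh1, the epithelial cadherin, was at 349, 385, 331 and 330 CPM, and Cdh2, the neural and mesenchymal one, at 425, 377, 413 and 411 CPM. Both RPC animals were slightly below both RP animals for Cdh1 (log2 fold change -0.15, SE 0.14, adjusted p = 0.616), and the genotypes overlapped for Cdh2 (0.04, SE 0.15, adjusted p = 0.912). R-cadherin (Cdh4), first described in the retina, was at 257, 213, 327 and 287 CPM, higher in both RPC animals without passing the test (log2 fold change 0.39, SE 0.17, adjusted p = 0.347). P-cadherin (Cdh3) stayed between 1.07 and 1.92 CPM.

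Cdh13 was also higher in both RPC animals than in both RP animals, with an adjusted p of 0.395 (log2 fold change 0.46, SE 0.23). The difference between the 2 RP animals was larger than that between RP2 and RPC2.

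The type II cadherins, which pair with a wider set of partners than type I cadherins, included genes that differed widely between single animals. Cdh20 overlapped between the genotypes (log2 fold change 0.27, SE 0.19). Cdh22 was at 418, 360, 345 and 240 CPM and Cdh24 at 36.1, 24.6, 22.6 and 23.2 CPM, both lower in the RPC animals (log2 fold changes -0.41 and -0.41, adjusted p = 0.425 and 0.443). Cdh8 was at 108, 21.02, 3.82 and 19.7 CPM. RP1 held over 4 times the Cdh8 level of each other animal, which 0.749% of all genes with enough counts showed for some animal, and the fold change (log2 -2.46, SE 1.05) had an adjusted p of 0.347. Cdh18 ran over a similar range, with 115, 45.2, 8.98 and 72.7 CPM, and RPC1 was the lowest for both genes.

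Cdh11, a cadherin of mesenchymal cells, was at 1.93, 5.65, 14.5 and 3.43 CPM, and Cdh12, a brain cadherin, at 15.6, 4.32, 18.3 and 4.05 CPM. In neither gene did the genotypes separate. Cdh7 was low throughout, at 2.499, 1.40, 0.184 and 0.374 CPM, and was lower in both RPC animals (log2 fold change -2.81, SE 0.55, adjusted p = 0.270 by edgeR and 0.00397 by DESeq2). The lowest Cdh7 value rests on 10 transcripts in RPC1. Cdh5 was close to absent from tumor-like nuclei, at 0.947, 1.44, 0.716 and 0.902 CPM.

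Cdh23 and Pcdh15, which together form the tip link of hair cells, moved differently. Cdh23 was at 13.3, 8.50, 4.06 and 4.68 CPM, so both RPC animals were below both RP animals (log2 fold change -1.32, SE 0.32, adjusted p = 0.276 by edgeR and 0.0198 by DESeq2). Pcdh15 was at 7.04, 14.5, 6.94 and 12.8 CPM and separated the animals by neither genotype.

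Several nonclustered protocadherins also differed between animals of 1 genotype. Pcdh9 was highest in RPC2 and similar in the other animals (log2 fold change 0.42, SE 0.30). Pcdh7, another delta-1 protocadherin, was at 191, 83.1, 8.38 and 105 CPM, and the level in RPC1 was 12.5 times lower than in RPC2. The genotypes overlapped for Pcdh7 (log2 fold change -1.27, SE 1.11, adjusted p = 0.597). Pcdh1 was at 38.4, 39.3, 21.7 and 29.4 CPM and was the 1 nonclustered protocadherin with an unadjusted p under 0.05 (log2 fold change -0.60, SE 0.20, adjusted p = 0.304). Pcdh10, a delta-2 protocadherin, was at 8.03, 15.5, 7.64 and 6.05 CPM.

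Of the Fat cadherins, giant receptors linked to planar polarity and growth control, Fat1 was the most abundant and the most even, at 229, 229, 203 and 221 CPM (log2 fold change -0.11, SE 0.13, adjusted p = 0.705). Fat3 was at 39.0, 17.9, 16.9 and 23.02 CPM, highest in RP1, and Fat4, the receptor of Dachsous, at 6.82, 2.59, 2.52 and 10.4 CPM. Fat2 stayed between 1.03 and 2.10 CPM. Of the Cdhr genes, Cdhr1, known from photoreceptors, was the most abundant at 7.95, 5.10, 12.03 and 8.53 CPM.

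The 2 animals of a genotype were often far apart for the members, which was not tested. Among the 69 members with at least 30 counts in an RP animal, RP1 and RP2 differed by more than 2-fold for 19 (27.5%, beside 8.57% of all such genes) and by more than 4-fold for 6 (8.70%, beside 1.94%). These 6 were Cdh8, Cdh9, Pcdha1, Pcdha2, Pcdha5 and the detected Cdhr17 gene. Among 76 members in the RPC animals, RPC1 and RPC2 differed by more than 2-fold for 15 (19.7%, beside 11.3%) and by more than 4-fold for 9 (11.8%, beside 2.34%), namely Cdh8, Cdh11, Cdh12, Cdh18, Cdhr5, Fat4, Pcdh7, Pcdh18 and Pcdha9. Cdh8 was the only member on both lists of more than 4-fold. Besides Cdh8, single animals exceeded each other animal by over 4 times for Pcdha2, with 2.12, 0.332, 0.276 and 0.242 CPM, and for Pcdha5, with 1.70, 0.185, 0.165 and 0.308 CPM, both highest in RP1. The detected Cdhr17 gene reached 1.59 CPM in RP2 and 0.265 CPM or less elsewhere.

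The tumor-like nuclei formed 11 clusters, each of which drew most of its nuclei from 1 animal. Levels in the clusters are CPM without TMM scaling. Pcdh7 and Cdh8 were at 337 and 129 CPM in cluster 07, which was 1 of the clusters of RP1, and at 13.3 and 25.4 CPM in cluster 05 of the same animal, so RP1 was not uniform. In clusters 00 and 09, both of RPC1, Pcdh7 was at 3.72 and 4.41 CPM. Cluster 13 held 687 tumor-like nuclei, 595 of them from RPC1, and its leading genes included the neuronal genes Grik2, Erbb4 and Nrxn3. There Cdh11 reached 107, Cdh12 131, Fat3 118, Pcdh10 55.3 and Pcdha10 90.5 CPM. Without cluster 13 the log2 fold changes of Cdh11 and Cdh12 turned to -0.47 and -1.50. Cdh2, Fat1 and Cdh20, by contrast, stayed within 373 to 512, 148 to 240 and 779 to 1158 CPM over all 11 clusters.

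**Figure D2:**
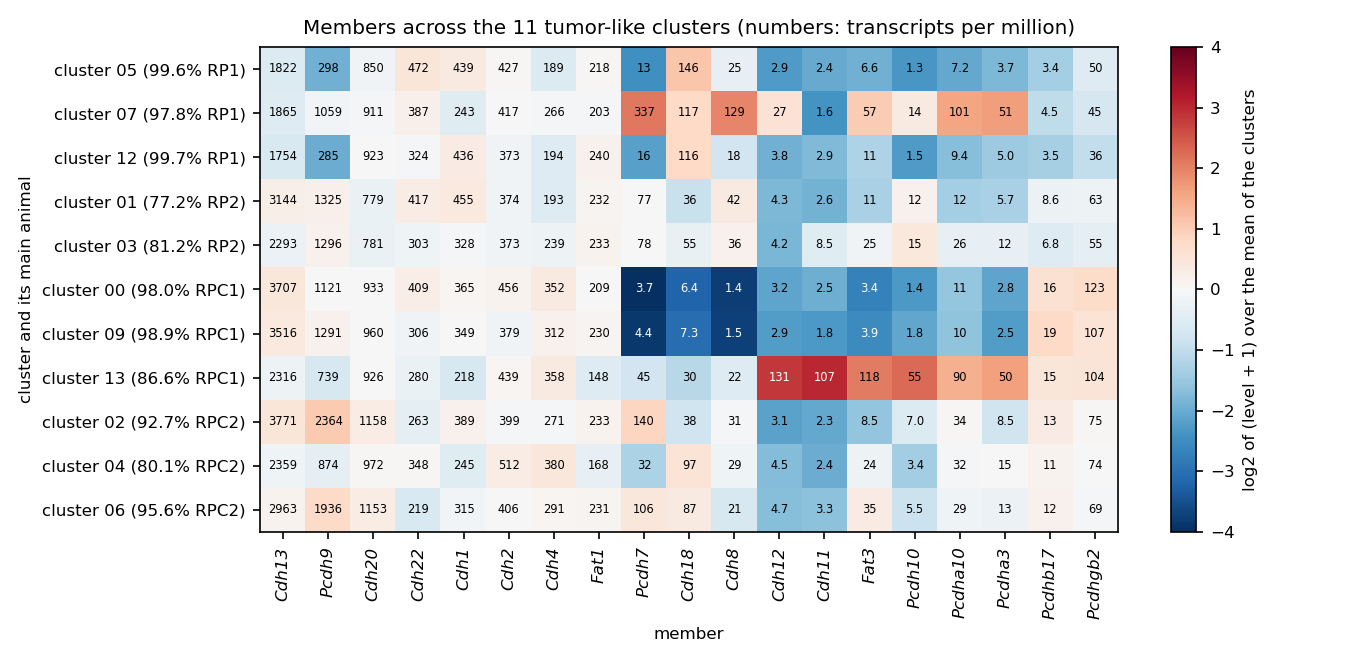
Level of members in each of the 11 tumor-like clusters, with the animal that gives most nuclei to the cluster named beside it (numbers, CPM, with color as the log2 ratio to the mean of the clusters after adding 1). Pcdh7 and Cdh8 stand out in cluster 07 of RP1, and Cdh11, Cdh12 and Fat3 in cluster 13.

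The clustered protocadherins lie in 3 arrays on chromosome 18 (GRCm39). The Pcdha genes span chr18:37063237-37320716, the Pcdhb genes chr18:37397991-37657532 and the Pcdhg genes chr18:37794846-37975014. Each Pcdha or Pcdhg isoform joins its own first exon to exons shared by the whole array, and 17 of the 22 Pcdhb genes have 1 exon in the annotation. All 58 genes overlap another annotated gene, so counts of single isoforms are uncertain and the sums are given beside them. The Pcdha sum was 108 CPM in RP1 and 32.6, 32.0 and 47.4 CPM in RP2, RPC1 and RPC2. The Pcdhb sum was 29.0, 36.8, 85.3 and 63.8 CPM. The Pcdhg sum was 208, 242, 367 and 287 CPM. For Pcdhb and Pcdhg both RPC animals were above both RP animals, with ratios of the genotype means of 2.27 and 1.45. For Pcdha the genotypes overlapped, with RP2 at the level of the RPC animals. The order of the Pcdhb sum was not particular to tumor-like nuclei. Every other class showed it except T or NK cell-like and mesothelial-like nuclei. Without TMM scaling, the Pcdhb sum was 22.5, 22.5, 84.3 and 70.8 CPM in B cell-like nuclei. Endothelial-like nuclei had 28.4, 44.6, 77.5 and 62.3 CPM. The part of tumor RNA in these sums was not tested.

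The Pcdhb genes made up most of the members that were higher in RPC at an unadjusted p. Of 21 tested, 18 were higher in RPC, 13 without overlap of the animals (24.8% of all genes) and 11 at an unadjusted p under 0.05 (7.49% of all genes), with a median log2 fold change of 1.18 beside -0.01 over all genes. None was lower at that p. Pcdhb21 was at 2.35 and 2.33 CPM in RP and 7.44 and 5.98 CPM in RPC (log2 fold change 1.52, SE 0.29, adjusted p = 0.270 by edgeR and 0.00164 by DESeq2). Pcdhb22 was at 2.01 and 2.47 CPM against 6.15 and 6.29 CPM (1.47, SE 0.29, adjusted p = 0.270 by edgeR and 0.00212 by DESeq2). In both genes the animals of a genotype were close together and the genotypes did not overlap. The most abundant Pcdhb genes were Pcdhb17, with 4.43, 7.68, 16.6 and 12.1 CPM (1.24, SE 0.36, adjusted p = 0.289 by edgeR and 0.0465 by DESeq2), and Pcdhb16, with 3.41, 5.65, 13.7 and 8.66 CPM (1.30, SE 0.39, adjusted p = 0.289 by edgeR).

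Along the array, the genes from Pcdhb13 to Pcdhb22 were all higher in RPC, a stretch that was delimited after the values were seen and received no test of its own. All 10 had both RPC animals above both RP animals (24.8% of all genes), with log2 fold changes from 1.01 to 2.23, and 8 had an unadjusted p under 0.05 (7.49% of all genes). Without RP1 that number was 3 and without RPC1 it was 2. The summed level of the stretch was 21.2, 32.5, 77.1 and 55.2 CPM. Over Pcdhb1 to Pcdhb12 it was 7.72, 4.32, 8.14 and 8.60 CPM. Of these 12 genes, 11 were tested, and both RPC animals were above both RP animals for 4 of the 12 (24.8% of all genes tested). Higher in RPC at an unadjusted p under 0.05 were 3, namely Pcdhb3, Pcdhb9 and Pcdhb11 (7.49% of all genes). Pcdhb3 and Pcdhb9 had at most 25 transcripts in any animal. Over the tumor-like clusters drawn mostly from an RPC animal, Pcdhb17 was at 11.4 to 18.7 CPM. Over those drawn mostly from an RP animal it was at 3.36 to 8.58 CPM. The clusters divide the nuclei of the same 4 animals and add no replicate.

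**Figure D3:**
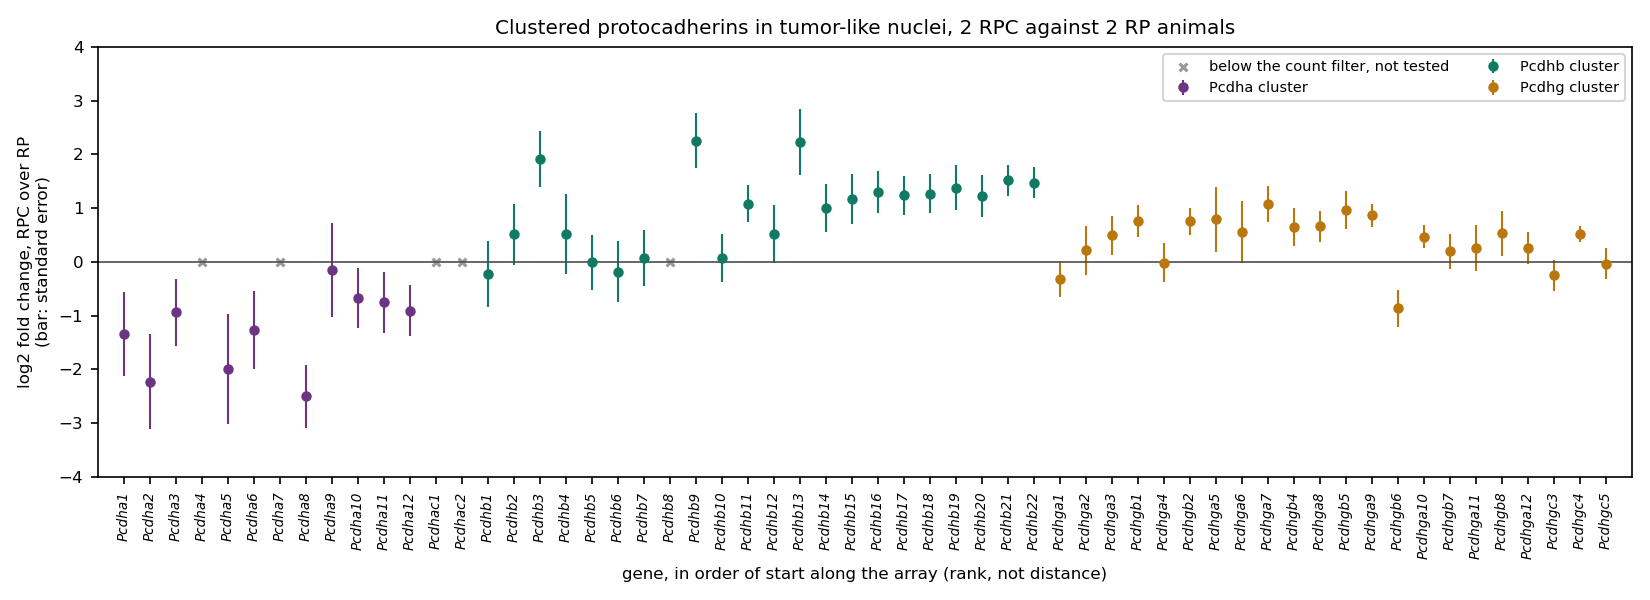
Log2 fold change (RPC over RP, vertical axis, bars 1 SE) of each tested clustered protocadherin in its order along chromosome 18 (horizontal axis), in tumor-like nuclei, with crosses for genes not tested. The tested Pcdha genes lie below 0, the genes from Pcdhb13 to Pcdhb22 between 1.01 and 2.23, and the Pcdhg genes on both sides of 0.

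Of the 22 Pcdhg genes tested, 17 had a higher and 5 a lower mean in RPC, with a median log2 fold change of 0.51 and none called by edgeR. Among the higher genes 11 did not overlap between the genotypes (24.8% of all genes) and 6 had an unadjusted p under 0.05 (7.49% of all genes). Among the lower genes 2 did not overlap (25.5% of all genes), namely Pcdhgb6 with 5.49, 4.65, 2.20 and 3.39 CPM (log2 fold change -0.86, SE 0.34) and Pcdhga1 with 1.02, 1.07, 0.827 and 0.858 CPM (log2 fold change -0.31). The leading isoforms were Pcdhgb2 with 50.1, 58.1, 112 and 71.3 CPM, Pcdhga10 with 49.3, 67.5, 89.1 and 72.3 CPM, and Pcdhgc4, 1 of the C-type isoforms, with 39.2, 40.8, 59.6 and 54.6 CPM. For all 3 both RPC animals were above both RP animals (log2 fold changes 0.76, 0.47 and 0.52, SE 0.25, 0.21 and 0.15, unadjusted p = 0.0282, 0.0799 and 0.0162 by edgeR). Pcdhga9 was at 10.8, 13.3, 22.9 and 21.04 CPM (0.87, SE 0.21, adjusted p = 0.276 by edgeR and 0.0413 by DESeq2), and Pcdhgb5 at 3.10, 3.99, 5.44 and 8.44 CPM (0.97, SE 0.35). The other Pcdhg genes with a mean of at least 5 CPM overlapped between the genotypes, namely Pcdhgc5 with 11.7, 7.98, 10.6 and 8.62 CPM, Pcdhgc3 with 6.70, 7.20, 6.92 and 4.75 CPM, Pcdhga5 with 4.51, 3.44, 10.6 and 3.14 CPM, Pcdhga12 with 3.98, 5.39, 5.99 and 5.23 CPM, and Pcdhga11 with 2.95, 6.24, 4.90 and 6.07 CPM.

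The Pcdha array was highest in RP1. Pcdha10 was at 59.9 CPM there and at 19.3, 19.6 and 30.4 CPM in the other animals, and Pcdha3 at 29.9 CPM against 8.13, 8.21 and 11.7 CPM. All 10 tested Pcdha genes were lower in RPC by their means, but the animals overlapped for 7 and were apart for 3 (25.5% of all genes). Of them 1, Pcdha8, had an unadjusted p under 0.05 (7.72% of all genes were lower at that p). Its level was low, at 1.14, 0.480, 0.147 and 0.132 CPM (log2 fold change -2.50, adjusted p = 0.276 by edgeR). Without RP1 the log2 fold change of Pcdha10 was 0.37 and that of Pcdha3 0.29. Isoform use was narrow in every animal, since Pcdha10 alone gave 55.6% to 64.1% of the Pcdha transcripts. Pcdhb use was broader, with 15.3% to 20.9% for Pcdhb17, its first gene, and the leading 3 Pcdhg genes gave 66.5% to 71.0% of the Pcdhg transcripts.

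The surroundings of the arrays were examined in the same fit. The annotated gene Gm38666, which spans chr18:37102969-37966349 and thus most of the 3 arrays, was at 40.1, 51.2, 131 and 112 CPM (log2 fold change 1.42, unadjusted p = 0.000561 by edgeR). Reads of the isoform genes and of Gm38666 could not be told apart by these counts. Taf7, a general transcription factor gene between the Pcdhb and Pcdhg arrays, was at 3.07, 4.14, 6.41 and 8.25 CPM (log2 fold change 1.02, unadjusted p = 0.0205 by edgeR). Of 5 tested genes inside the arrays that are no members, the other 3 were Gm26672, Gm10544 and Gm37165, with log2 fold changes of 0.11, 0.36 and 0.30 (unadjusted p of 0.504 to 0.772 by edgeR). The 75 tested genes within 2 Mb on either side that are no members had a median log2 fold change of 0.06. Of them 18 had both RPC animals above both RP animals (24.8% of all genes). At an unadjusted p under 0.05, 2 were higher in RPC (7.49% of all genes).

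Outside the tumor-like nuclei, single members marked single classes. In each class, ratios to the tumor-like mean were ranked only among members with at least 30 transcripts over all animals. Levels are CPM of each class without TMM scaling, in the same order of animals, and no test was run since classes and levels come from the same nuclei. VE-cadherin (Cdh5) was at 195, 213, 229 and 151 CPM in endothelial-like nuclei, 197 times its mean in tumor-like nuclei. Pcdh17, a delta-2 protocadherin, was at 116, 63.8, 110 and 63.7 CPM there, 94.9 times the tumor-like mean. In ciliated-like nuclei Cdhr3, the cadherin-related receptor of rhinovirus C, was at 383, 471, 230 and 371 CPM (436 times) and Cdhr4 at 217, 214, 43.2 and 69.9 CPM (351 times), from 12 to 32 nuclei per animal. All 4 animals showed each of these 4 members far above the tumor-like level.

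In mesothelial-like nuclei, of which there were 7 to 24 per animal, Cdh11 was at 184, 306, 413 and 372 CPM and P-cadherin (Cdh3) at 184, 118, 252 and 19.6 CPM. In smooth muscle- or pericyte-like nuclei Cdh11 was at 166, 219, 215 and 161 CPM, 29.4 times the tumor-like mean. That cluster also expressed fibroblast markers. Pcdh19 was the second member of that class by ratio, at 20.3, 1.99, 3.64 and 6.37 CPM (20.2 times, from 31 transcripts in all), and most of it came from RP1.

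Cdh1 was also counted in the epithelial classes. In alveolar type 1-like nuclei Cdh1 was at 560, 448, 281 and 278 CPM, 1.12 times the tumor-like mean, and Pcdhga10 was at 136, 93.4, 106 and 82.6 CPM, 1.499 times its tumor-like mean. In alveolar type 2-like nuclei the mean of Cdh1 was 380 CPM (1.09 times). Club-like nuclei had a mean of 597 CPM of Cdh1. In alveolar type 1-like nuclei the median neuroendocrine marker stood at 35.4% to 61.2% of its tumor-like level. It stood at 62.4% to 89.4% in alveolar type 2-like and 15.9% to 80.8% in club-like nuclei. The part of tumor RNA in these Cdh1 levels was not tested. Fat3 and Fat2 had the largest ratios in club-like nuclei, with Fat3 at 369, 426, 142 and 282 CPM (12.7 times) and Fat2 at 18.4, 37.8, 12.01 and 17.4 CPM (15.5 times). In alveolar type 2-like nuclei Fat2 was at 16.2, 12.3, 9.84 and 3.002 CPM (7.48 times the tumor-like mean) and Fat3 at 62.2, 60.7, 24.6 and 49.5 CPM (2.05 times). Of the club-like nuclei 709 were from RPC1 and 15, 81 and 101 from the other animals.

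Among members with at least 30 transcripts in the class, immune classes had none far above the tumor-like level. Members with fewer transcripts were not ranked. The largest ratios in macrophage- or monocyte-like nuclei were 2.15 for Fat3, at 41.7, 42.6, 68.5 and 53.9 CPM, and 1.95 for Cdh23, at 28.9, 10.8, 6.95 and 12.3 CPM. In B cell-like nuclei the largest ratios were 1.07 for Fat3, at 48.9, 7.499, 12.04 and 34.5 CPM, and 1.06 for Cdh18, at 101.7, 74.99, 2.41 and 74.7 CPM. In T or NK cell-like nuclei they were 0.935 for Cdh18, at 109, 25.04, 11.3 and 77.6 CPM, and 0.874 for Pcdhga10, at 54.6, 31.3, 96.2 and 62.1 CPM. Transcripts of the tumor's abundant members were present in all classes. The neuroendocrine markers, which define the tumor-like nuclei, were also counted in the named classes, where the median marker stood at 15.9% to 93.3% of its level in tumor-like nuclei of the same animal, at 71.4% to 86.1% in endothelial-like and 57.4% to 77.1% in macrophage- or monocyte-like nuclei. The part of such RNA in the levels of Cdh1, Cdh13, Cdh20 or Pcdh9 in those classes was not tested. Ratios were also taken after nuclei with over 4 times the median transcripts of their animal were left out of the class. The mean of all tumor-like nuclei was kept as the denominator. These ratios were 419 for Cdh5, 192 for Pcdh17, 952 for Cdhr3, 642 for Cdhr4, 64.6 for Cdh11 and 45.5 for Pcdh19 in smooth muscle- or pericyte-like nuclei, and 0.460 for Fat3 in B cell-like nuclei.

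**Figure D4:**
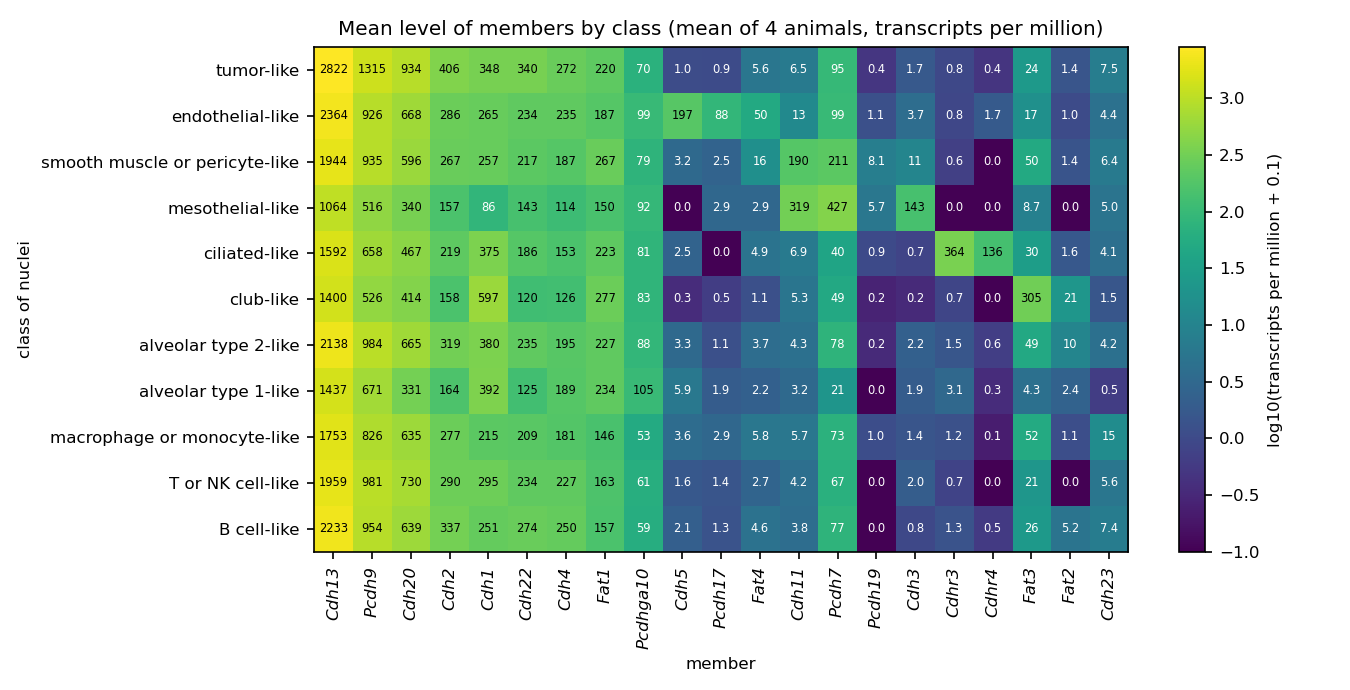
Mean level of members over the 4 animals in each named class (numbers, CPM, with color on a log10 scale after adding 0.1). Cdh5 and Pcdh17 are highest in the endothelial-like row, Cdhr3 and Cdhr4 in the ciliated-like row, and Cdh11 is high in the mesothelial-like and the smooth muscle- or pericyte-like rows.

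RPC and RP were also compared within the 3 classes with at least 50 nuclei in every animal, and no member passed edgeR's adjusted p in any of them. In endothelial-like nuclei 26 members were tested and 0 called (0.0933% of all genes), with 3 at an unadjusted p under 0.05 (13% of all genes) and 0 by DESeq2. These were Cdh4, Cdh8 and Fat4, and Fat4 was at 80.9, 48.2, 41.1 and 28.7 CPM (log2 fold change -0.94). In macrophage- or monocyte-like nuclei 27 were tested and 0 called (0.00846% of all genes), with 5 at an unadjusted p under 0.05 (12.3%) and 0 by DESeq2. These were Pcdh7, at 184, 59.98, 6.42 and 41.6 CPM, Cdh8, Pcdha3, Pcdhga9 and Pcdhgb2. In tumor-like nuclei of the same animals Pcdh7 was at 191, 83.1, 8.38 and 105 CPM (TMM-scaled). The part of tumor RNA in the values of these classes was not tested.

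In smooth muscle- or pericyte-like nuclei edgeR called 0 of 26 tested members (0.0385% of all genes), while the unadjusted p was under 0.05 for 7 (12.7%). DESeq2 called 1 member, the X-linked Pcdh11x. It had 28 and 23 transcripts in the RP animals against 0 and 4 in the RPC animals (log2 fold change -4.21, adjusted p = 0.207 by edgeR and 0.0270 by DESeq2). Fat1 was at 361, 290, 217 and 199 CPM (-0.76, adjusted p = 0.299) and Pcdh7 at 284, 276, 108 and 176 CPM (-1.08), and both were lower in both RPC animals. The others were Cdh8, Pcdh1, Fat3 and Pcdhga9. The part of tumor RNA in the values of this class was not tested. The difference between the genotypes was then compared between each class and the tumor-like nuclei by an interaction term in edgeR, and no member had an adjusted p under 0.05 in endothelial-like (0.388% of all genes), macrophage- or monocyte-like (0.037%) or smooth muscle- or pericyte-like nuclei (0.127%). At an unadjusted p under 0.05 there were 7 of 89, 9 of 82 and 5 of 84 members, beside 4.32%, 5.09% and 4.09% of all genes. The smallest adjusted p values were 0.0752 for Pcdhgb2 in endothelial-like and 0.0524 for Pcdh11x in smooth muscle- or pericyte-like nuclei.

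Single nuclei were compared at an equal depth of 1000 transcripts, which left 6306, 6487, 9027 and 8246 tumor-like nuclei and removed 791, 750, 136 and 435 shallower ones. At least 1 member transcript was found in 99.1% to 99.8% of the nuclei, and the median nucleus held transcripts of 4 different members. With 2 animals per genotype the smallest possible p of the two-sided exact permutation test is 0.33, so no share could pass a threshold. The share of nuclei with Cdh13 was 77.2%, 83.5%, 91.5% and 89.2% (exact permutation p = 0.33), higher in both RPC animals. Cdh1 was found in 26.7%, 28.9%, 27.6% and 26.5% of nuclei and Cdh2 in 32.4%, 30.3%, 32.0% and 32.2%, with overlapping genotypes. The exact binomial 95% interval of Cdh1 in RP1 was 25.6% to 27.8%, and such intervals cover counting error only.

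Cdh1 and Cdh2 were seen in the same nucleus in 8.56%, 8.26%, 8.65% and 7.89% of tumor-like nuclei. The product of their separate shares was 8.67%, 8.76%, 8.84% and 8.52%, so at this depth the observed share was slightly below the product in all 4 animals. In macrophage- or monocyte-like nuclei, which lack E-cadherin as a cell type, Cdh1 was found in 7.48% to 13.9% and Cdh13 in 45.4% to 53.8% of nuclei at the same depth. For Cdh1 and Cdh13, shares at or below those values are not read as expression. Cdh5 was found in 27.4%, 35.8%, 33.7% and 35.1% of endothelial-like nuclei and in 0.111%, 0.0771%, 0.0775% and 0.146% of tumor-like nuclei.

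Of the members whose levels differed between animals, shares are given here for 3. Pcdh7 was found in 10.3%, 5.63%, 0.576% and 7.23% of tumor-like nuclei, Cdh8 in 7.71%, 1.71%, 0.321% and 1.62%, and Pcdh9 in 41.4%, 54.7%, 53.3% and 65.3%. A Pcdhb transcript was found in 2.54%, 3.67%, 7.94% and 6.05% of tumor-like nuclei and a Pcdhg transcript in 17.7%, 20.1%, 28.9% and 24.1% (exact permutation p = 0.33 each), both without overlap of the genotypes. For Pcdha the shares were 7.77%, 2.65%, 2.56% and 4.24%. At 1000 transcripts most tumor-like nuclei with a Pcdhb or Pcdhg transcript showed 1 isoform of that array. Among nuclei with a Pcdhb transcript, 3.75%, 4.20%, 6.56% and 4.81% held 2 or more Pcdhb isoforms, and among those with a Pcdhg transcript 12.3%, 15.03%, 17.8% and 15.6% held 2 or more Pcdhg isoforms. The Pcdhg shares were 19.6%, 23.1%, 31.1% and 26.2% at 2000 transcripts and 37.8%, 40.4%, 57.04% and 50.04% without thinning, so the share with 1 isoform depended on depth. In these data a single isoform per nucleus cannot be told apart from several isoforms that were not sampled.

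**Figure D5:**
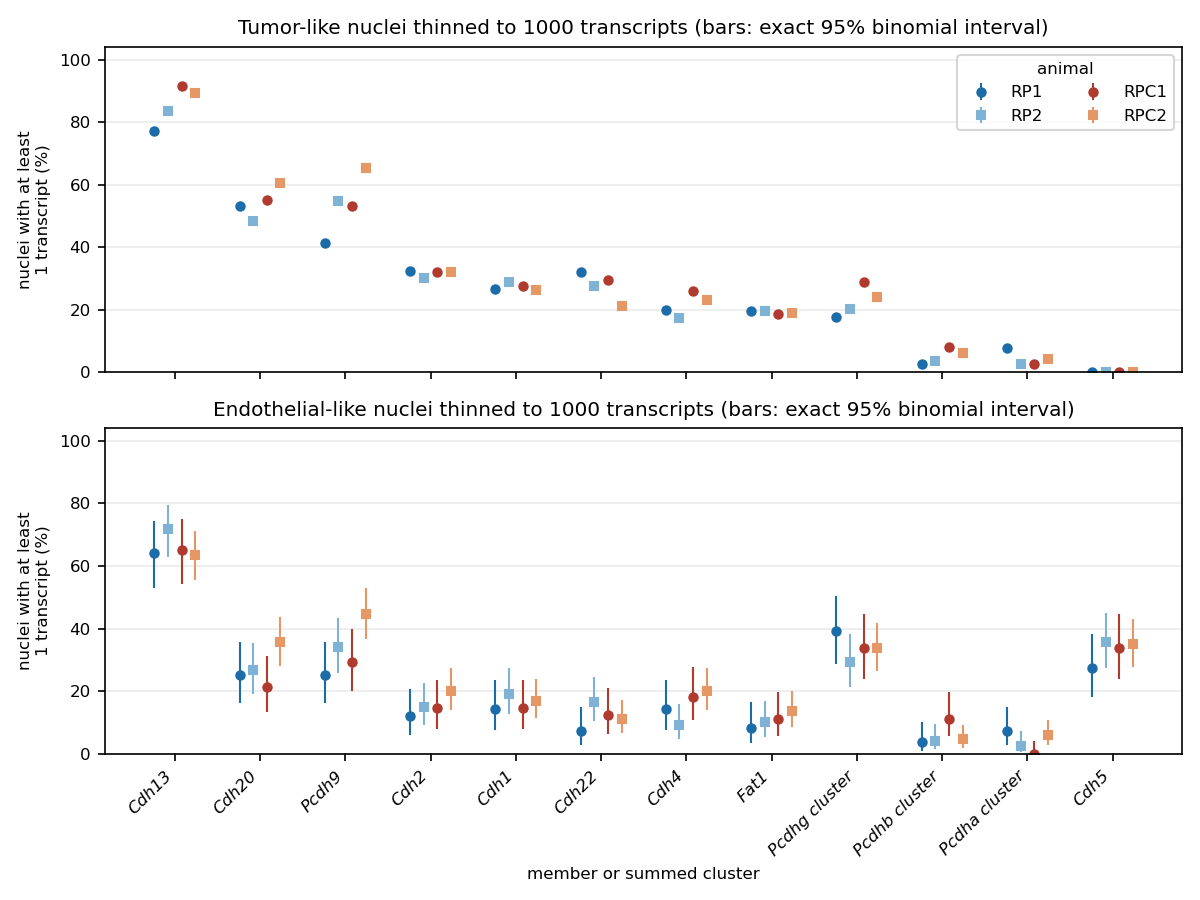
Share of tumor-like nuclei with at least 1 transcript of a member or array at 1000 transcripts per nucleus (vertical axis, percent, bars exact 95% binomial intervals), 1 point per animal, with endothelial-like nuclei in the lower panel. In tumor-like nuclei both RPC animals are above both RP animals for Cdh13, Cdh20, Cdh4, Pcdhb and Pcdhg. The points of Cdh1 and Cdh2 overlap.

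Genes that act with the members were examined in lists of known partners. None of the catenins and plaque partners (15 tested) had an unadjusted p under 0.05, and the neuronal alpha-catenin Ctnna2 was at 2307, 2068, 3106 and 2832 CPM (log2 fold change 0.44). Of 12 other receptors of the superfamily, 2 were lower in RPC at an unadjusted p under 0.05 (7.72% of all genes). They were Dchs1, the ligand of Fat4, at 13.9, 6.13, 3.53 and 2.07 CPM (-1.84, DESeq2 adjusted p = 0.0250), and Celsr3 (-0.70). Of 13 tested Fat partners and Hippo genes, Stk3 (0.39) alone had an unadjusted p under 0.05 (7.49% of all genes were higher at that p). Of the repressors of Cdh1 transcription, 3 of 6 had enough counts and none had an unadjusted p under 0.05, with Zeb1 at 409, 416, 516 and 492 CPM (0.29). Of 11 regulators of the clustered locus, which include CTCF and cohesin genes, 9 were higher in both RPC animals (24.8% of all genes). Stag2 (0.38) and Nipbl (0.39) of them had an unadjusted p under 0.05, beside 7.49% of all genes higher at that p. The largest change of this list went the other way. Dnmt3b was lower in both RPC animals, at 15.03, 16.4, 9.50 and 12.03 CPM (-0.55, unadjusted p = 0.0586 by edgeR). None of 6 tested shedding and cleavage enzymes had an unadjusted p under 0.05. By edgeR 0 genes of these lists had an adjusted p under 0.05.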

How the data were processed

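Single-nucleus libraries of 4 lung tumors were made by split-pool barcoding (Parse Evercode), in which the first barcode marks the animal. The 7 GEO samples are libraries that each pool all 4 animals, so groups were taken from the animal and genotype labels. The authors aligned reads to GRCm39 with the PARSE pipeline and deposited raw counts of transcripts (unique molecules) per gene and nucleus, 1 matrix per animal, not normalized. Strand handling and the assignment of reads in overlapping genes are not given in the sources used here. Each deposited description of the nuclei has 12 columns, of which 9 were not used.

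Nuclei with under 300 transcripts, over 10% mitochondrial transcripts or over 12000 genes were removed. Clustering used leidenalg 0.10.2 with igraph 0.11.9 and scikit-learn 1.9.0 (Python 3.11.15, NumPy 2.4.6, pandas 2.3.3, SciPy 1.17.1) on 2000 variable genes without the members, 20 principal components, 20 neighbors and a resolution of 0.4, with clusters named by 13 marker lists. No doublet caller was run. Leaving out nuclei above 4 times the median depth of their animal served instead. Counts were summed per animal and class and tested with edgeR 4.0.16 (TMM, filterByExpr, quasi-likelihood F test) under R 4.3.3, with Benjamini-Hochberg adjustment over all genes tested and a threshold of 0.05. Kept transcripts per animal ranged from 32256394 to 70517884, so low members are measured less precisely in the RP animals. For shares, nuclei were thinned to 1000 transcripts with a fixed seed. The fit, the interaction term and the thinning were tested on simulated data.

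Alternatives were DESeq2 1.42.0, no TMM scaling, no filter on low counts, each animal left out, the animal number as a replicate block, other nucleus filters and clusterings, all kept nuclei, odd or even sublibraries, no thinning and 2000 transcripts. A newer form of the edgeR fit, the interaction term and class levels without deep nuclei were added after seeing the data. The members and lists were chosen with earlier results of these data known. Named with every animal's value were members with a mean of at least 5 CPM in tumor-like nuclei, Cdh1, Cdh2, Cdh5 and Fat1, members at over 4 times every other animal, members with an adjusted p under 0.05, and the 2 members with the largest ratio to tumor-like nuclei in each other class. Those ratios were ranked among members with at least 30 transcripts in the class over all animals. Members outside that rule, such as Cdh7, Pcdhb21, Pcdhb22 and Pcdh11x, and partner genes outside the 3 largest fold changes of their list, such as Stk3, were singled out after their values were seen.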

Additional observations from a re-analysis of the deposited data

How the results depend on the processing

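In tumor-like nuclei the number of members past an adjusted p of 0.05 was 0 by edgeR and 7 by DESeq2, and 0 with each animal left out. The number lower in RPC at an unadjusted p was 4, against 7 by DESeq2 and 9 without a filter on low counts. With single animals left out it ranged from 4 to 13, the number higher from 6 to 21 (main 17), and the number of Pcdhb13 to Pcdhb22 higher from 2 to 10 (main 8). By DESeq2, Cdh23 (-1.28), Pcdhb17 (1.28) and Pcdhga9 (0.91) passed an adjusted p. Log2 fold changes turned for Cdh11 (-0.47) and Cdh12 (-1.50) without the neuronal cluster, for Cdh12 (-0.019) without deep nuclei, for Cdhr4 (-1.56) with all kept nuclei, for Pcdh17 (0.028) in odd sublibraries, and for Pcdhgc5 by DESeq2 (0.013), without TMM (0.032) and without the filter (0.040).

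With single animals left out, which leaves 1 animal in an arm that is assumed to vary like the others, log2 fold changes ranged over 0 for Pcdha10 (-1.26 to 0.37), Cdh2 (-0.045 to 0.129), Cdh11 (-0.14 to 2.22), Cdh12 (-1.29 to 1.37), Fat4 (-0.89 to 1.32), Pcdh15 (-0.62 to 0.49), Pcdh9 (-0.01 to 0.76), Fat3 (-0.97 to 0.16), Pcdha3 (-1.58 to 0.29), Pcdhgc5 (-0.28 to 0.27), Pcdhga11 (-0.19 to 0.89), Pcdhgc3 (-0.54 to 0.006), Pcdhga5 (-0.33 to 1.43), Pcdha5 (-2.85 to 0.34), Cdhr4 (-0.13 to 1.20) and Pcdh17 (-0.43 to 0.15).

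The members past an adjusted p in the other classes, 0 in each by edgeR, were 1 in endothelial-like nuclei without the filter and 1 with the replicate block (Cdh8, adjusted p = 0.0447), 5 in macrophage- or monocyte-like nuclei without the filter, and 1 by DESeq2 and 4 without the filter in smooth muscle- or pericyte-like nuclei. With single animals left out they ranged from 0 to 1, 0 to 0 and 0 to 2. For these settings no share of all genes called is given, so the counts of members stand without a background. The part of tumor RNA in the members called there was not tested. The replicate numbers of the animals are names only. Deviations of same-numbered animals correlated at -0.0518 over 20066 genes, and with the replicate block 17 members were higher and 4 lower at an unadjusted p in tumor-like nuclei, as without it.

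The difference in the share of nuclei (RPC minus RP, percentage points) turned without thinning for Cdh1 (6.39, main -0.79) and Fat1 (4.28, main -0.84), and ranged with single animals left out from -1.90 to 0.31 for Cdh1, -0.33 to 1.82 for Cdh2 and -4.37 to 0.75 for Pcdha. At 2000 transcripts per nucleus the mean share with a transcript was 7.75% for Pcdha, 9.73% for Pcdhb and 38.4% for Pcdhg (4.31%, 5.05% and 22.7% at 1000).

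Limits apply to all results. There were 2 animals per genotype, and no gene of 20066 passed edgeR's adjusted p. Members under 1 CPM rest on few transcripts. Isoform counts of the clustered arrays share sequence. Class names are rebuilt, and tumor RNA is present in every class.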
